A study of Mus musculus with 9 samples.

Results

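The Wnt pathway genes described here are 57 of the 23337 genes in the deposited table of read counts. They were chosen by gene symbol alone and comprise 19 Wnt ligands, 4 R-spondins, 10 Frizzled receptors, the co-receptors Lrp5 and Lrp6, 5 genes that control receptor turnover (Lgr4, Lgr5, Lgr6, Rnf43 and Znrf3), 9 secreted antagonists, 4 intracellular inhibitors (Axin1, Axin2, Nkd1 and Nkd2) and 4 Tcf/Lef transcription factors. The rule uses no measured value, but it was set with earlier results of these data known. The RNA came from immortalised mouse embryonic fibroblasts (MEFs) on a C57BL/6 x 129 background in which Cebpb, the gene of the transcription factor C/EBPβ, was knocked out. These Cebpb-ko MEFs were stably transfected with a plasmid for rat C/EBPβ-LAP (LAP, the long activating isoform), with a plasmid for rat C/EBPβ-LIP (LIP, the short isoform without most of the activation domains) or with the empty vector (EV), and were kept under Zeocin selection. Each group has 3 libraries, so all 9 libraries share the knockout and the selection. The sources used here give neither whether the lines are clones nor whether the 3 libraries of a group came from separate cultures, and p-values then measure only the spread between these libraries, which may be technical.

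Wnt ligands are secreted proteins that bind a Frizzled receptor together with Lrp5 or Lrp6 at the cell surface. In the canonical branch this stops the destruction complex around Axin from degrading β-catenin, which enters the nucleus and activates genes with Tcf/Lef factors. Secreted Frizzled-related proteins (Sfrp) bind Wnt ligands outside the cell, and Dickkopf proteins such as Dkk1 and Dkk2 bind Lrp5 and Lrp6. R-spondins act through Lgr receptors to hold back Znrf3 and Rnf43, the ubiquitin ligases that remove Frizzled from the membrane. In fibroblasts and other mesenchymal cells, Wnt signalling is known for restraining adipogenesis, a programme in which C/EBPβ acts early.

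The libraries hold between 24839139 and 33522082 counted reads. Levels are given as CPM, that is counts scaled to a common library size, here for all 9 libraries together by edgeR's TMM method, and 3 counts, the floor used here, stand for 0.0879 to 0.123 CPM. Such floors cover counting error only. Mouse Cebpb had 684 to 1077 counts in the 9 libraries, EV included. The deleted part of the gene is not given in the sources used here and the plasmids carry the rat sequence, so this gene is no check of the groups. The labelled cell type was seen mainly in its abundant markers, since 10 fibroblast markers summed to between 14500 and 41300 CPM in every library. Nearly all of this came from Col1a1, Col1a2, Col3a1, Vim and Fn1. That sum was lower in LIP (14500 to 28800 CPM) than in EV (33300 to 38000 CPM), and in LAP it was 24600 to 41300 CPM. Most of that gap was in the collagens, such as Col1a2 with 7675 ± 389 CPM in EV and 3593 ± 1298 CPM in LIP, while Vim had 4556 ± 413 and 4348 ± 893 CPM (mean ± SD, n = 3 each). Fn1 had 9012 ± 1063 and 7440 ± 2891 CPM. The scarcer Thy1 (264 ± 77.2 and 125 ± 93.01 CPM), Dcn (18.6 ± 9.61 and 8.62 ± 4.15 CPM) and Pdgfra (2.41 ± 0.381 and 0.937 ± 0.639 CPM) also had lower means in LIP. So did Pdgfrb (1.06 ± 0.0618 and 0.326 ± 0.29 CPM) and Lum (0.668 ± 0.669 CPM in EV and 0 counts in LIP), both scarce. Summed adipocyte markers were at 1.87 to 17.0 CPM in LIP, 20.5 to 26.6 CPM in EV and 21.1 to 60.6 CPM in LAP. Almost all of this was Lpl, and Adipoq, Plin1 and Cidec had 0 to 2 counts in every library. Epithelial markers summed to 485 to 1000 CPM and neural markers to 56.5 to 99.4 CPM over all groups. Almost all of the epithelial sum was Krt8 (450 ± 45.55 CPM in EV and 627 ± 149 CPM in LIP) and Krt14 (198 ± 25.6 and 135 ± 64.75 CPM). Endothelial, leukocyte and skeletal muscle markers stayed at or under 9.66 CPM, with Pecam1, Ptprc, Myod1 and Myf5 at 0 counts. In bulk RNA, fewer cells of a type and less RNA per cell cannot be told apart.

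Of the 57 members, 37 had a mean of at least 20 counts over the 9 libraries. These 37 were 9 ligands, 3 R-spondins, 8 Frizzled receptors, both Lrp co-receptors, Lgr4, Lgr6 and Znrf3, 5 antagonists, 3 of the Axin and Nkd genes and the 4 Tcf/Lef factors. Wnt3a, Wnt9b and Fzd10 had 0 counts in every library, which allows a level of up to 3 counts per library. The other 17 had between 1 and 78 counts in all 9 libraries together. Among them were the antagonists Dkk1, Dkk4, Sfrp5 and Wif1 with 13, 1, 5 and 15 counts, and Lgr5 and Rnf43 with 19 and 23 counts. Sfrp3 goes by the symbol Frzb and is not among the members.

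To set the members side by side, CPM was divided by the length of each gene's merged exons in kilobases (GENCODE M21). In EV the highest levels per length were those of Dkk3 with 26.2 ± 5.94, Lrp5 with 24.6 ± 3.98, Fzd2 with 23.1 ± 2.28 and Wnt4 with 20.5 ± 5.57 CPM per kb (mean ± SD, n = 3 each). The SDs of neighbours in this order overlap, so their ranks are not separated. In LIP the order began with Lrp5 (28.4 ± 6.19), Fzd2 (18.5 ± 5.47) and Wnt4 (16.8 ± 10.5), and Dkk3 stood 8th with 7.42 ± 6.49 CPM per kb. Sfrp2, which was 8th in EV with 11.8 ± 2.02 CPM per kb, was 23rd in LIP with 1.01 ± 0.8796 CPM per kb. At a level of at least 1 CPM per kb stood 25 members in EV, 26 in LAP and 23 in LIP. Thus Lrp5, Lrp6, Fzd1, Fzd2 and Fzd7 had the highest counted levels among the receptors, and Wnt4, Wnt9a and Wnt11 among the ligands. In the same counts the common Wnt target Myc had 0 counts in every library. Ctnnb1, the gene of β-catenin, had 9.97 ± 2.55 CPM in EV. Whether the counting missed reads of some genes was not tested, so these ranks are those of the counts.

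**Figure D1:**
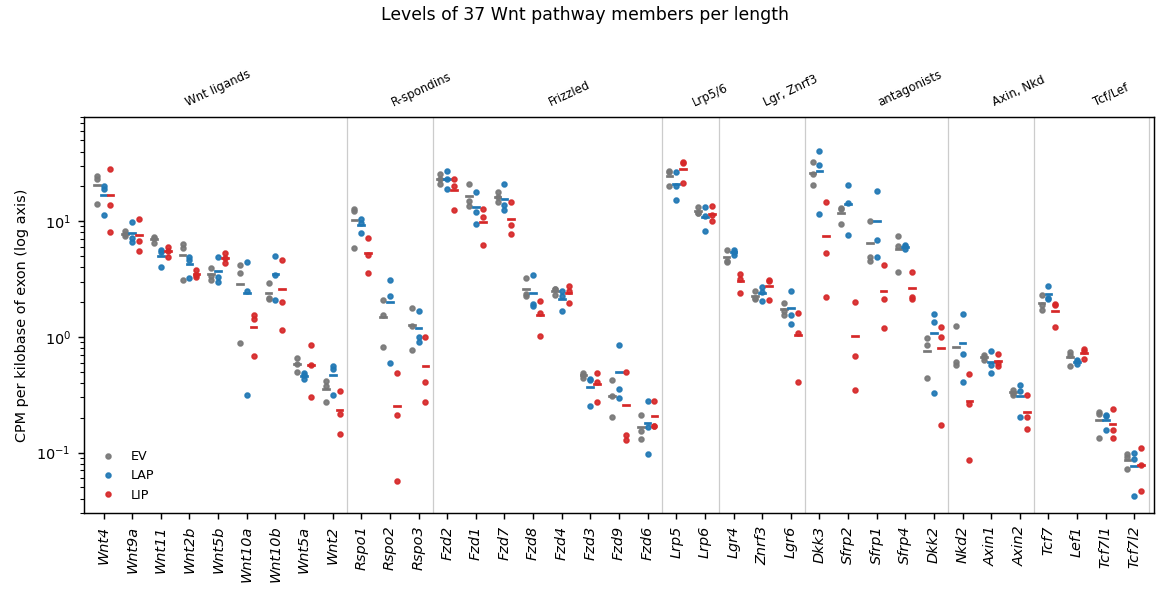
Levels of the 37 members with a mean of at least 20 counts, in CPM per kilobase of exon on a log axis, grouped by role. Each point is a library (EV grey, LAP blue, LIP red) and each bar a group mean. Lrp5, Fzd2 and Wnt4 stayed near the top in all groups, and the LIP points of Sfrp2 and Rspo2 lie below those of EV and LAP.

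In every LIP library the summed secreted antagonists, R-spondins and genes of receptor turnover were below those of every EV and LAP library. Few of these genes passed the test singly. The other role sums of LIP overlapped with EV, LAP or both. How often sums of other gene sets separate in this way was not tested. Against EV, Sfrp2 fell and was the single member past an adjusted p of 0.05 in the edgeR quasi-likelihood test, with p-values adjusted by the Benjamini-Hochberg method over the 18203 genes tested (54 members tested, 1 lower and 0 higher). Over all genes, 0.330% were lower and 0.0659% higher in that comparison. Against LAP, Sfrp2, Rspo2, Sfrp1, Sfrp4 and Wnt6 fell (53 members tested, 5 lower and 0 higher), with 0.837% of all 18166 genes tested lower and 0.209% higher. Both comparisons share the LIP libraries.

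At an unadjusted p under 0.05, 17 of the 54 members tested were lower in LIP than in EV and 1 was higher, that is 31.5% lower against 6.75% of all genes. Among the 37 members with a mean of at least 20 counts, 30 had a log2 fold change below 0 and 15 were lower at an unadjusted p under 0.05. These 30 are 81.1% of the 37 and the 15 are 40.5%, where 47.9% of the 11535 genes with such a mean were below 0 and 8.89% were lower. The median log2 fold change of the 37 was -0.32, and that of the 11535 genes was 0.01. Without overlap between the groups, 12 of the 54 were lower and 2 higher in LIP than in EV (8.83% and 6.80% of all genes). Against LAP, 13 of the 53 members tested were lower with a p under 0.05 before adjustment, and 0 were higher (5.98% and 3.30% of all genes), and 9 were lower and 2 higher without overlap (6.90% and 5.91% of all genes). Of the 37, 24 were below 0 (64.9% against 49.3%) and 11 were lower at an unadjusted p under 0.05 (29.7% against 7.68% of genes with such a mean), with a median of -0.41 against 0.00. The summed fibroblast markers, mostly through collagens, were also lower in LIP than in EV and overlapped with LAP, and Lpl was lower in LIP, as given above. Their part in these counts was not tested.

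**Figure D2:**
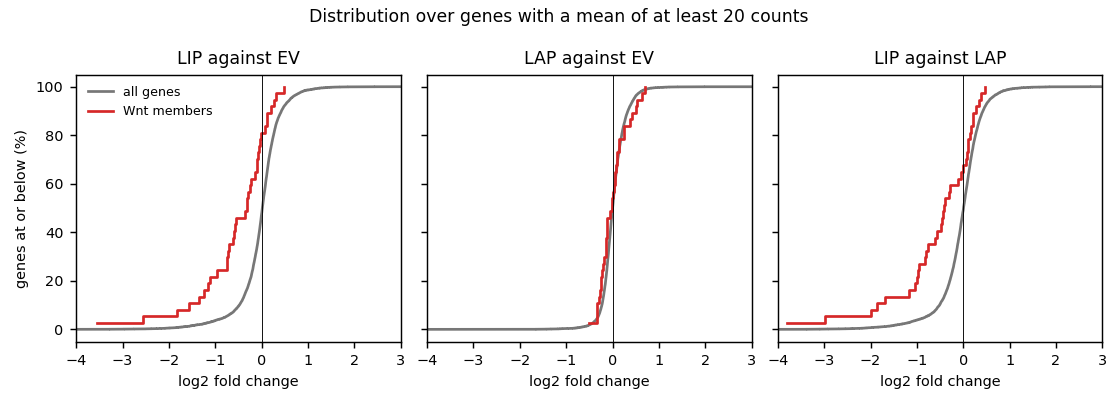
Cumulative share of genes in percent against the log2 fold change, for the 37 members (red) and for all 11535 genes that reach the same mean count (grey), in the 3 comparisons. The members' curve lies to the left of the grey curve in LIP against EV (medians -0.32 and 0.01) and in LIP against LAP, and follows it more closely in LAP against EV.

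The 5 calls in LIP against LAP and the single call in LIP against EV depended on the fit. With edgeR's filterByExpr, which tests fewer genes, and with robust estimation 0 members passed in either comparison. Over all genes, filterByExpr called 3 of 12424 lower against EV and 1 of 12419 lower against LAP. Robust estimation called 23 of 18203 and 40 of 18166 lower. In these fits 13 of 38 and 15 of 54 members were lower at an unadjusted p under 0.05 in LIP against EV (7.72% and 6.32% of all genes), and 9 and 11 in LIP against LAP (6.31% and 5.33% of all genes). DESeq2 and the edgeR exact test called 3 members each lower against EV, where they called 1.36% and 1.33% of all genes lower, and 5 each against LAP, with 1.09% and 1.01% of all genes. Libraries of LIP and LAP with the same number deviated together from their group means, and with this number as a block 12 members were lower and 0 higher in LIP against LAP, where the calls over all genes also rose, to 4.79% lower and 1.72% higher. The same block gave 8 lower members in LIP against EV, with 2.21% of all genes lower, but there the numbers were not taken as pairs. Against LAP, the members added by the block were Dkk3, Nkd2, Lgr4, Lgr6, Rspo1, Rspo3 and Fzd7 (adjusted p from 1.01e-15 for Dkk3 to 0.0261 for Fzd7 in the edgeR quasi-likelihood test). In that fit 2 of 96.1 degrees of freedom came from a gene's own libraries and the rest from the trend over all genes.

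Among members with a mean of at least 20 counts, the 5 antagonists had a median log2 fold change of -1.36 in LIP against EV and the 3 R-spondins one of -1.16, the lowest of the 8 role groups. Summed over the 9 antagonists, the level per length was 63.9, 46.6 and 42.2 CPM per kb in EV, 86.7, 58.7 and 30.6 in LAP and 24.4, 10.4 and 8.57 in LIP. Every LIP library lay below every library of the other groups. The summed R-spondins were 15.96, 8.13 and 14.8 CPM per kb in EV, 13.8, 11.03 and 12.7 in LAP and 8.05, 4.07 and 6.16 in LIP, again without overlap, although LIP 1 and EV 2 differ by less than 0.1 CPM per kb. The 5 Lgr, Rnf43 and Znrf3 genes together had 8.18 to 9.54 CPM per kb in EV, 8.735 to 10.93 in LAP and 5.98 to 7.90 in LIP. These LIP libraries, too, lay below all others. In this group Lgr4 and Lgr6 had lower means in LIP than in EV (3.01 against 4.88 and 1.04 against 1.73 CPM per kb). Znrf3 went the other way, with 2.73 against 2.26 CPM per kb. The summed Frizzled receptors had 57.7 to 64.06 in EV, 45.47 to 66.95 in LAP and 30.01 to 50.74 in LIP, below EV but overlapping with LAP. By contrast, the summed ligands were 45.4 to 57.6 CPM per kb in EV, 37.4 to 48.9 in LAP and 32.2 to 57.0 in LIP, and the groups overlapped. Lrp5 and Lrp6 together had 33.4 to 39.1 CPM per kb in EV, 23.6 to 37.8 in LAP and 31.4 to 45.8 in LIP, also with overlap.

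**Figure D3:**
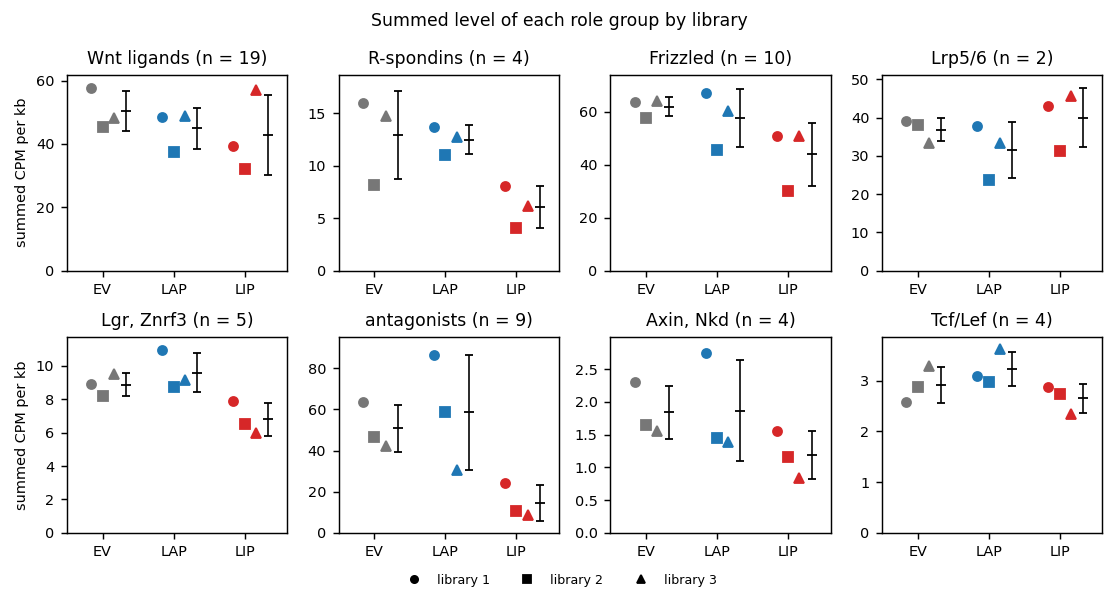
Summed level of each role group in CPM per kilobase of exon, 1 panel per role with the number of genes summed. Points are libraries (circle 1, square 2, triangle 3) and the black bar is the mean with its SD (n = 3). The antagonists, the R-spondins and the Lgr, Rnf43 and Znrf3 genes of the LIP libraries lie below those of EV and LAP. The Frizzled sums of LIP lie below EV and overlap with LAP, while ligands and Lrp5 and Lrp6 overlap between groups.

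Sfrp2 encodes a secreted Frizzled-related protein and lies on chr3:83765750-83774314 (positions of genes are those of RefSeq on GRCm38.p6). It was measured at 28.1, 20.3 and 27.4 CPM in the EV libraries 1 to 3, 44.1, 30.8 and 16.5 CPM in LAP and 4.33, 1.47 and 0.743 CPM in LIP. All LIP libraries were below every other library, with LIP 1 the highest of them. The log2 fold change was -3.56 against EV (SE 0.47, adjusted p = 0.00776 in the edgeR quasi-likelihood test) and -3.80 against LAP (SE 0.48, adjusted p = 0.000771 in the same test), that is 11.8-fold and 13.9-fold lower. Both calls held with each of the 6 libraries left out in turn. They were lost with filterByExpr (adjusted p = 0.114 and 0.127) and with robust estimation (adjusted p = 0.125 and 0.250). The annotated antisense gene Gm26771 shares 16.1% of the exon bases of Sfrp2, and the library kit keeps no strand, so reads of such a pair cannot be told apart. Genes annotated on the opposite strand also share exon bases with other members, among them Fzd5 (17.8%), Lef1 (13.7%) and Wnt11 (8.8%).

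Sfrp1, on chr8:23411383-23449632, is another secreted Frizzled-related protein. Its libraries had 43.7, 19.6 and 21.2 CPM in EV, 80.1, 30.1 and 21.2 CPM in LAP and 18.4, 5.18 and 9.37 CPM in LIP. The highest LIP library was just below the lowest EV library, and LAP 1 stood far above LAP 2 and LAP 3. Sfrp1 fell in LIP against LAP (log2 fold change -1.99, SE 0.43, adjusted p = 0.0328 in the edgeR quasi-likelihood test), a call lost without LAP 1, LAP 2 or LIP 2. Against EV the log2 fold change was -1.36 (SE 0.41) with an adjusted p of 0.201 in the same test.

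Sfrp4, on chr13:19623175-19632825, had 31.3, 25.2 and 15.1 CPM in EV, 25.7, 23.8 and 25.8 CPM in LAP and 9.27, 8.81 and 15.2 CPM in LIP. The LAP libraries lay close together and above all LIP libraries, while EV 3 and LIP 3 had almost the same level. It fell against LAP by 1.16 on the log2 scale (SE 0.26, adjusted p = 0.0344 in the edgeR quasi-likelihood test), and this call passed without LAP 3 or LIP 3 but not without any other library. Against EV the log2 fold change was -1.11 (SE 0.28, adjusted p = 0.131 in the same test).

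Dkk3, a Dickkopf family member that does not act on Lrp6 like Dkk1, was the most abundant antagonist per length in every group. It had 109, 86.2 and 69.01 CPM in EV, 135, 102 and 38.9 CPM in LAP and 49.4, 17.9 and 7.46 CPM in LIP. LIP lay below EV throughout, whereas LAP 3 was below LIP 1. The log2 fold changes of -1.82 against EV (SE 0.48) and -1.87 against LAP (SE 0.48) had adjusted p of 0.138 and 0.0688 in the edgeR quasi-likelihood test. Dkk2, an antagonist of the Lrp co-receptors, had 3.14, 3.65 and 1.64 CPM in EV, 5.89, 4.96 and 1.22 CPM in LAP and 4.53, 3.67 and 0.646 CPM in LIP. Library 3 was the lowest in all groups and the groups overlapped (log2 fold change 0.07, 95% interval -1.08 to 1.21, LIP against EV). Dkk3 made up 51.4% of the summed antagonist level per length in EV, 45.3% in LAP and 45.8% in LIP, whereas the share of Sfrp2 was 23.6%, 24.3% and 6.28%.

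**Figure D4:**
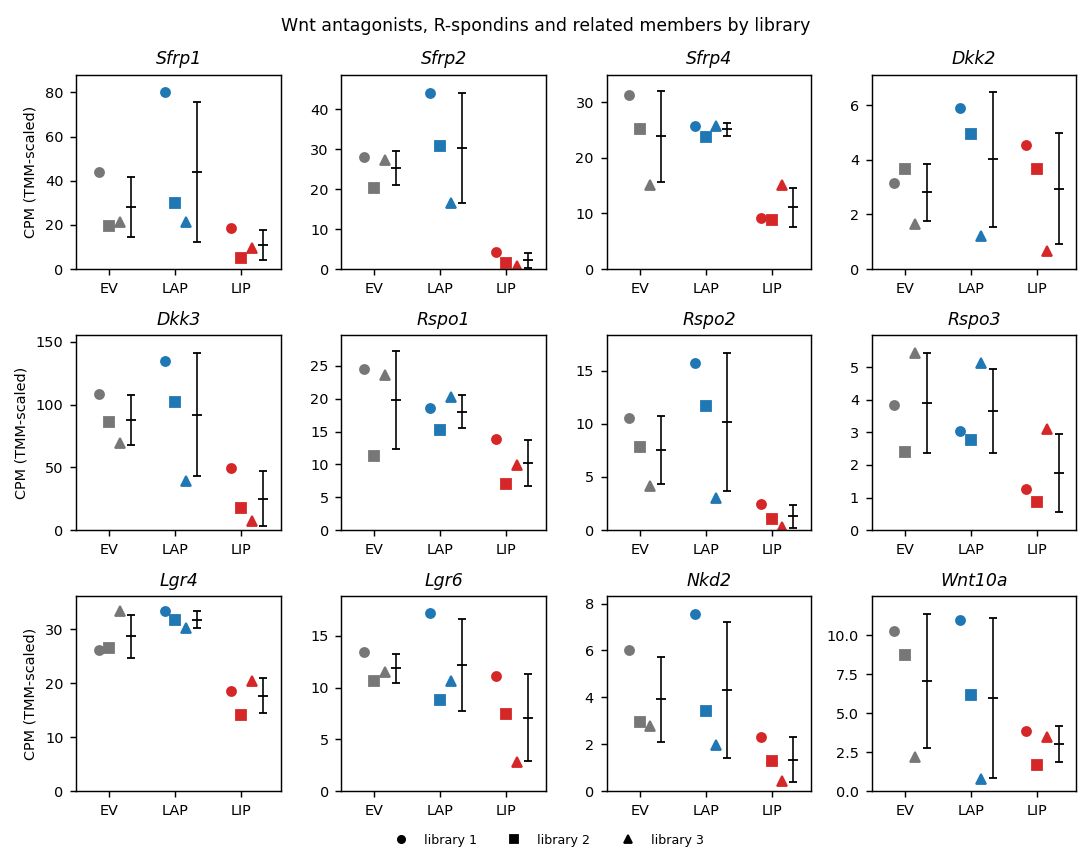
CPM of 12 members in each library, in linear scale from 0. Points are libraries (circle 1, square 2, triangle 3) and the black bar is the group mean with its SD (n = 3). All LIP points lie below all EV and LAP points for Sfrp2, Rspo2, Sfrp1 and Lgr4, and the groups overlap for Dkk2 and Wnt10a.

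R-spondins amplify Wnt signals through Lgr receptors. Rspo2, on chr15:43020788-43171594, had 10.6, 7.82 and 4.19 CPM in EV, 15.8, 11.6 and 3.03 CPM in LAP and 2.49, 1.08 and 0.291 CPM in LIP. All LIP libraries were below all others, and library 3 was the lowest of each group. Rspo2 fell against LAP (log2 fold change -2.98, SE 0.58, adjusted p = 0.0185 in the edgeR quasi-likelihood test), a call lost without LAP 2 and with DESeq2 (adjusted p = 0.0999). Against EV, the log2 fold change of -2.57 (SE 0.56) had an adjusted p of 0.0774 in the same test, and of 0.00123 with DESeq2.

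Rspo1 was the most abundant R-spondin per length, with 24.5, 11.3 and 23.6 CPM in EV, 18.6, 15.2 and 20.2 CPM in LAP and 13.8, 6.95 and 9.88 CPM in LIP. LIP lay below LAP, and EV 2 fell among the LIP libraries. Rspo3 had 3.86, 2.399 and 5.45 CPM in EV, 3.05, 2.77 and 5.14 CPM in LAP and 1.26, 0.852 and 3.101 CPM in LIP, with LIP 3 above EV 2, LAP 1 and LAP 2. For both genes each LIP library was below the EV library of the same number, though with these numbers the libraries were not treated as paired. Their log2 fold changes in LIP against EV were -0.96 for Rspo1 (SE 0.31) and -1.16 for Rspo3 (SE 0.45), with adjusted p of 0.251 and 0.352 in the edgeR quasi-likelihood test. The annotated antisense gene Gm48159 shares 13.1% of the exon bases of Rspo3. Rspo4 had 5 counts in all, 4 of them in LAP 1.

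Lgr4, a receptor of R-spondins on chr2:109917647-110014257, had 26.2, 26.5 and 33.4 CPM in EV, 33.5, 31.8 and 30.3 CPM in LAP and 18.5, 14.2 and 20.5 CPM in LIP. The LIP libraries were below all others, with narrow groups. The log2 fold changes were -0.70 against EV (SE 0.20, adjusted p = 0.174) and -0.83 against LAP (SE 0.23, adjusted p = 0.104), neither past 0.05 in the edgeR quasi-likelihood test, and the latter had an adjusted p of 0.0415 with DESeq2. Lgr6 had 13.4, 10.7 and 11.5 CPM in EV, 17.2, 8.77 and 10.6 CPM in LAP and 11.1, 7.44 and 2.78 CPM in LIP, where LIP 1 lay within the range of EV. Znrf3, the ligase held back by R-spondins, had 19.7, 16.6 and 17.2 CPM in EV, 21.3, 16.1 and 19.2 CPM in LAP and 24.6, 23.8 and 16.3 CPM in LIP. LIP 1 and LIP 2 were above all other libraries of Znrf3 and LIP 3 lay among them (log2 fold change 0.27 against EV, 95% interval -0.16 to 0.71).

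Among the Frizzled receptors, 7 of the 8 with a mean of at least 20 counts had a log2 fold change below 0 in LIP against EV and 0 passed an adjusted p of 0.05 in the edgeR quasi-likelihood test (3 lower at an unadjusted p under 0.05, and 0 called by DESeq2 or the edgeR exact test). Of all genes with such a mean, 47.9% were below 0 and 8.89% were lower at an unadjusted p under 0.05. Fzd1, on chr5:4753839-4758216, had 56.5, 62.1 and 87.6 CPM in EV, 50.8, 39.4 and 75.5 CPM in LAP and 45.2, 26.3 and 53.2 CPM in LIP. Fzd7, on chr1:59482147-59486955, had 81.2, 73.1 and 67.02 CPM in EV, 94.2, 56.6 and 62.3 CPM in LAP and 66.4, 34.8 and 42.02 CPM in LIP. Both lay lower in all LIP than in all EV libraries, and both overlapped with LAP. Fzd8 had 19.2, 14.1 and 13.4 CPM in EV, 20.6, 11.5 and 11.1 CPM in LAP and 9.67, 6.13 and 12.1 CPM in LIP, with the same order. The log2 fold changes in LIP against EV were -0.73 for Fzd1 (SE 0.25), -0.63 for Fzd7 (SE 0.22) and -0.74 for Fzd8 (SE 0.26), with adjusted p of 0.283, 0.292 and 0.302 in the same test.

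Fzd2, the most abundant Frizzled per length, had 93.2, 76.5 and 84.04 CPM in EV, 98.6, 70.1 and 85.1 CPM in LAP and 73.03, 45.8 and 84.9 CPM in LIP, and LIP 2 alone lay below the other libraries. Fzd4, whose product is also the receptor of norrin, had 17.4, 17.4 and 15.3 CPM in EV, 15.1, 11.2 and 16.8 CPM in LAP and 16.6, 13.1 and 18.4 CPM in LIP. Its groups overlapped (log2 fold change -0.06, 95% interval -0.48 to 0.36, LIP against EV). Fzd3 had 3.22 to 6.29 CPM, Fzd6 had 0.467 to 1.36 CPM and Fzd9 had 0.295 to 1.94 CPM over the 9 libraries, with overlap between LIP and EV. Fzd5 had 78 counts in all 9 libraries.

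The co-receptors lay on both sides of EV. Lrp5, on chr19:3584825-3686585, had 267, 258 and 196 CPM in EV, 261, 149 and 197 CPM in LAP and 309, 207 and 315 CPM in LIP. LIP 1 and LIP 3 were above all other libraries and LIP 2 was not. Lrp6, on chr6:134446476-134566913, had 160.0, 159.7 and 182 CPM in EV, 151, 113 and 180.4 CPM in LAP and 153, 138 and 184 CPM in LIP. The log2 fold changes in LIP against EV were 0.21 for Lrp5 (95% interval -0.23 to 0.64) and -0.08 for Lrp6 (95% interval -0.43 to 0.27).

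Among the 19 ligands, Wnt4 was the most abundant per length and made up 40.4% of the summed ligand level in EV, 36.99% in LAP and 36.7% in LIP. Wnt4, on chr4:137277635-137299501, had 103, 59.3 and 96.1 CPM in EV, 79.3, 47.6 and 85.2 CPM in LAP and 57.8, 34.1 and 119 CPM in LIP, and the LIP libraries spanned the range of all others. Wnt9a had 27.2, 25.98 and 24.8 CPM in EV, 24.1, 21.8 and 32.7 CPM in LAP and 22.4, 18.2 and 35.01 CPM in LIP. Its log2 fold change in LIP against EV was -0.04 (95% interval -0.53 to 0.44). Both ligands thus had means within 1 SD of each other across the groups.

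Wnt11 and Wnt5b are known mainly for signalling without β-catenin. Wnt11, on chr7:98835084-98854747, had 29.9, 30.4 and 27.04 CPM in EV, 23.2, 16.5 and 22.3 CPM in LAP and 24.9, 20.4 and 22.8 CPM in LIP. The EV libraries were above all LAP and LIP libraries. Its log2 fold changes were -0.50 in LAP (SE 0.17) and -0.36 in LIP (SE 0.17) against EV, with adjusted p of 0.918 and 0.455 in the edgeR quasi-likelihood test. Wnt5b, on chr6:119432531-119544824, had 8.27, 8.97 and 10.4 CPM in EV, 7.92, 8.803 and 13.02 CPM in LAP and 12.7, 11.6 and 14.2 CPM in LIP, higher in every LIP than in every EV library. Wnt5b was the only member higher in LIP than EV at an unadjusted p under 0.05 (log2 fold change 0.48, SE 0.20, adjusted p = 0.414 in the same test), against 4.23% of all genes tested. Wnt5a, a relative of Wnt5b, had 5.101, 3.91 and 4.54 CPM in EV, 3.64, 3.38 and 3.81 CPM in LAP and 4.49, 2.36 and 6.62 CPM in LIP, and LIP lay on both sides of the other groups.

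Wnt10a and Wnt10b are ligands known for restraining adipogenesis. Wnt10a had 10.3, 8.75 and 2.17 CPM in EV, 10.98, 6.14 and 0.777 CPM in LAP and 3.84, 1.67 and 3.49 CPM in LIP. Library 3 of EV and of LAP lay among or below the LIP libraries, and the others lay above them (log2 fold change -1.24, SE 0.48, adjusted p = 0.357 in LIP against EV in the edgeR quasi-likelihood test). Wnt10b had 9.89, 7.196 and 7.35 CPM in EV, 11.6, 17.1 and 7.07 CPM in LAP and 6.86, 15.6 and 3.88 CPM in LIP. It was highest in library 2 of LAP and of LIP, and the groups overlapped. Wnt2b had 26.8, 24.7 and 13.1 CPM in EV, 19.3, 13.6 and 20.8 CPM in LAP and 15.8, 14.4 and 13.7 CPM in LIP, where EV 3 was below the LIP libraries and the other EV libraries were above them. Wnt2 stayed between 0.328 and 1.26 CPM in all libraries.

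Wnt6, on chr1:74754342-74785322, was scarce, with 9, 5 and 3 counts in EV, 16, 11 and 1 counts in LAP and 0 counts in each LIP library. Set against a floor of 3 counts per LIP library, it was at least 2.91-fold lower when set against LAP (adjusted p = 0.0488 in the edgeR quasi-likelihood test) and, set against EV, at least 1.74-fold lower with an adjusted p of 0.139 in the same test. The call against LAP passed without LAP 3 or LIP 3 but not without any other library, and LAP 3 had 1 count. Wnt6 lies 6.70 kb from Wnt10a on the same strand of chromosome 1. The other members within 100 kb of each other were Wnt3a and Wnt9a, Wnt9b and Wnt3, and Wnt10b and Wnt1. Of these pairs, Wnt3a and Wnt9b had 0 counts in all libraries beside a counted neighbour, and Wnt1 and Wnt3 had 30 and 31 counts in all 9 libraries together.

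The Axins hold the destruction complex together, and Nkd proteins bind Dishevelled. Nkd2 had 6.003, 2.95 and 2.78 CPM in EV, 7.55, 3.41 and 1.96 CPM in LAP and 2.33, 1.28 and 0.4199 CPM in LIP. LIP lay below EV, and LIP 1 was above LAP 3. Its log2 fold changes were -1.56 against EV (SE 0.50, adjusted p = 0.236) and -1.69 against LAP (SE 0.51, adjusted p = 0.164) in the edgeR quasi-likelihood test. Axin2, a feedback inhibitor that canonical Wnt signalling induces in many cells, had 1.93, 1.73 and 1.82 CPM in EV, 1.88, 1.11 and 2.11 CPM in LAP and 1.71, 1.11 and 0.872 CPM in LIP. LIP was below EV in all libraries by a narrow margin, and LAP 2 had the same level as LIP 2. The log2 fold change of Axin2 in LIP against EV was -0.57 (95% interval -1.29 to 0.14, adjusted p = 0.574 in the same test). Axin1 had 2.55, 2.66 and 2.43 CPM in EV, 2.898, 1.87 and 2.18 CPM in LAP and 2.73, 2.29 and 2.13 CPM in LIP, with overlap.

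The Tcf/Lef factors act with β-catenin in the nucleus. Tcf7 had 4.45, 4.98 and 6.06 CPM in EV, 5.73, 5.61 and 7.18 CPM in LAP and 5.06, 4.91 and 3.17 CPM in LIP, and every LIP library was below every LAP library (log2 fold change -0.48, 95% interval -1.11 to 0.15). Lef1, both a Wnt effector and a common Wnt target, had 4.95, 6.13 and 6.53 CPM in EV, 5.39, 5.102 and 5.55 CPM in LAP and 6.61, 5.701 and 6.85 CPM in LIP, and every LIP library was above every LAP library (log2 fold change 0.27, 95% interval -0.31 to 0.85). The shares of all genes without overlap are given above. Tcf7l1 and Tcf7l2 had 0.370 to 0.969 CPM over the 9 libraries. The log2 fold changes of the 4 factors in LIP against EV lay between -0.24 and 0.12.

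**Figure D5:**
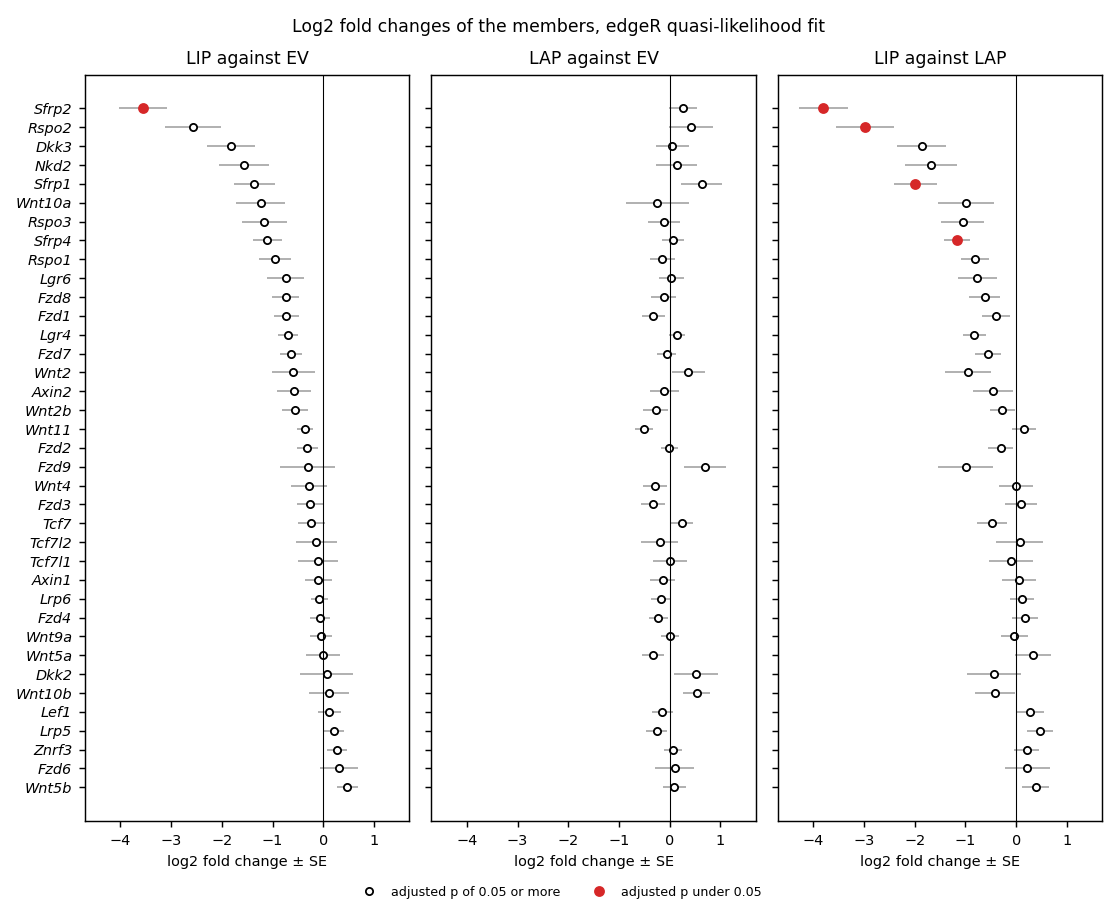
Log2 fold change with its SE (grey bar) of the 37 members in the 3 comparisons, ordered by LIP against EV. Filled red points have an adjusted p under 0.05 in the edgeR quasi-likelihood test, Sfrp2 against EV and Sfrp2, Rspo2, Sfrp1 and Sfrp4 against LAP. Wnt6, with a mean of 5 counts, is not drawn.

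The comparison of LAP with EV sets the cells with the long isoform against those with the empty vector, and it gave no call among the members. In LAP against EV, 0 of the 54 members tested passed an adjusted p of 0.05 in the edgeR quasi-likelihood test (smallest adjusted p = 0.918), with 0.0330% of the 18156 genes tested lower and 0.0275% higher. Before adjustment, p was under 0.05 for 1 lower member, Wnt11, and for 0 higher ones, against 1.34% and 1.93% of all genes, and 0 members were called by DESeq2, by the edgeR exact test or with the replicate number as a block. Without overlap, 3 members were lower and 0 higher, where 3.61% and 3.96% of all genes were. The 37 members with a mean of at least 20 counts had log2 fold changes between -0.50 and 0.70 with a median of -0.01. The antagonists leaned upward without a call, for example Sfrp1 with 0.63 (95% interval -0.23 to 1.49) and Sfrp2 with 0.26 (95% interval -0.32 to 0.84). Sfrp1, Sfrp2 and Rspo2 were highest in LAP 1, and without LAP 1 their log2 fold changes in LAP against EV were -0.15, -0.12 and -0.06. The comparison of LIP with LAP sets the isoform lines directly against each other, and its calls are those given above. In this design, effects of the isoform and of the transfected line cannot be told apart.

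C/EBPβ binds DNA as a dimer at sites close to TTGCNNAA, and LIP keeps the DNA-binding domain of LAP. The 250 bases before each RefSeq transcription start (GRCm38.p6) were therefore searched on both strands, in the 47 windows that were found for 38 of the 57 members. TTGCNNAA occurred in 4 of them (8.51%), those of Sfrp2, Lgr4, Fzd1 and Wnt3, and in 9.56% of the 32851 windows of all genes. The Tcf/Lef motif CTTTGAT occurred in 2 member windows (4.26%), those of Wnt11 and Wnt5b, and in 3.21% of all windows. Of the 15 members lower in LIP than EV at an unadjusted p under 0.05 with a mean of at least 20 counts, 8 had a window and 3 a C/EBP match. These 3 windows are printed 5′ to 3′ on the strand of the gene so that the matches, in capitals, can be read in place.
Sfrp2, chr3:83766071-83766320, plus strand: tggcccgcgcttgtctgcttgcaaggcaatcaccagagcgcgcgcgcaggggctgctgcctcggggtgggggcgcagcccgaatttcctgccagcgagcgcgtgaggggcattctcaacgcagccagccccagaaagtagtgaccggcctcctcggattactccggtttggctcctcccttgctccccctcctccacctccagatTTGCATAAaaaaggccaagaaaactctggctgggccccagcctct
Lgr4, chr2:109917397-109917646, plus strand: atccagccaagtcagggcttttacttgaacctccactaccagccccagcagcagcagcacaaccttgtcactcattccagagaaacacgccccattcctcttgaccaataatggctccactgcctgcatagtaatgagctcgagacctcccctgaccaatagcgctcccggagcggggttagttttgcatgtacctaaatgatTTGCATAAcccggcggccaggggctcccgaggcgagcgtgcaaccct
Fzd1, chr5:4758217-4758466, minus strand: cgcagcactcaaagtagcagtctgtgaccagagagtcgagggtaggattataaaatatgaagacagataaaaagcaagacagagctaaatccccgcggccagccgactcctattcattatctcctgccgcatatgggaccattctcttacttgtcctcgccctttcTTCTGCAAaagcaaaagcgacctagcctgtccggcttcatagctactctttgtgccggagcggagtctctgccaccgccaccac
The window of Sfrp2 precedes a transcript start that lies 571 bases inside the RefSeq gene interval given above, and those of Lgr4 and Fzd1 end just before the gene's first base. The match lies 45 bases before the start in Sfrp2, 47 in Lgr4 and 84 in Fzd1, where it reads in the opposite direction. In Sfrp2 and Lgr4 the same letters, TTGCATAA, overlap by 6 bases with ATTTGCAT, the octamer bound by POU factors, which occurs in 1.60% of all windows. A match is a run of letters and does not show binding, and no window was found for Sfrp1, Sfrp4, Rspo2 and Dkk3.

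Of 71 other listed genes of the pathway, 69 were tested in LIP against EV. At an adjusted p of 0.05 in the edgeR quasi-likelihood test, 1 of them was lower and 0 were higher. The shares over all genes tested were 0.330% lower and 0.0659% higher. The lower listed gene was Wisp2 (also Ccn5), a secreted CCN family protein known as a Wnt-induced gene. It had 38.0, 26.6 and 28.8 CPM in EV, 46.1, 53.6 and 8.25 CPM in LAP and 3.35, 3.38 and 0.872 CPM in LIP. Its LIP libraries were below all others, and the log2 fold change against EV was -3.63 (SE 0.40, adjusted p = 0.00307 in the same test). The 13 genes of the destruction complex and β-catenin had a median log2 fold change of 0.03 in LIP against EV, with 0 called and 0 at an unadjusted p under 0.05. Their smallest p belonged to Gsk3b, a kinase that marks β-catenin for degradation (127 ± 17.4 CPM in LIP against 161 ± 29.99 CPM in EV, mean ± SD over 3 libraries each, adjusted p = 0.527 in the edgeR quasi-likelihood test). Daam2, a formin that binds Dishevelled, had the smallest p among the Dishevelled partners, with 174, 195 and 242 CPM in LIP, 136, 134 and 100.5 CPM in EV and 111, 100.2 and 103 CPM in LAP. It rose in LIP against LAP (log2 fold change 0.98, SE 0.22, adjusted p = 0.0386 in the same test), and its adjusted p against EV was 0.119. Gpc4, a glypican of the cell surface, led the planar cell polarity genes and co-receptors with 40.9 ± 18.6 CPM in LIP against 91.2 ± 18.2 CPM in EV (adjusted p = 0.107). Notum, an enzyme that inactivates Wnt ligands, led the ligand-processing genes with 0.315 ± 0.151 CPM in LIP against 0.911 ± 0.346 CPM in EV (adjusted p = 0.204). The nuclear co-factors, led by Bcl9, a β-catenin partner (57.8 ± 8.66 CPM in LIP, 51.3 ± 8.05 CPM in EV), had a median log2 fold change of -0.06 and 0 of 12 at an unadjusted p under 0.05. Over the 69 genes the median was -0.07, and over all genes tested it was 0.04. Of the 69, 6 were lower and 1 was higher with a p under 0.05 before adjustment. These are 8.70% and 1.45% of the 69, where 6.75% and 4.23% of all genes tested were.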

How the data were processed

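RNA was sequenced on a HiSeq2500 as 50-base single reads from TruSeq RNA v2 libraries, 3 each of EV, LAP and LIP. The authors aligned the reads with TopHat 1.4.1 to the mouse genome mm10 with RefSeq annotation, and the deposited counts are whole reads per gene from HTSeq 0.5.4, without normalization. The strand setting of the counting is not given in the sources used here. The table holds 23337 symbols and 0 unused columns, and the depths stand in the report. Groups come from the labels.

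The 57 members and all gene lists were chosen with earlier results of these data known. Each pair of groups was fitted on its 6 libraries over every gene with at least 1 count with edgeR 4.0.16 under R 4.3.3 (TMM, quasi-likelihood test, no covariates, Benjamini-Hochberg adjustment over all genes tested, threshold 0.05). Standard errors were taken as the size of the log2 fold change over the square root of F. A two-sided exact permutation test of CPM cannot go below p = 0.1 with 3 against 3 libraries, so it was not used for calls. Among the members, every one past the threshold or with a mean of at least 20 counts is named, and of the other pathway genes those past the threshold and the one with the smallest p in each list. Exon lengths come from GENCODE M21, positions and promoter sequences from RefSeq on GRCm38.p6. The fits were tested on simulated data. Also tried were the edgeR exact test, DESeq2 1.42.0, both of these together (the study's original DESeq was not used here), other scalings, filterByExpr, all 9 libraries in a single model, robust estimation, the replicate number as a block and each library left out. Figures were drawn with matplotlib 3.10.9.

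The labels number the libraries 1 to 3 in each group. Across genes, same-numbered libraries had correlations of their deviations from the group means of 0.546, 0.223 and 0.517 for LAP and EV and of 0.577, 0.421 and 0.480 for LIP and LAP, so the numbers may pair these groups. The main fits nevertheless used no block, and the block is given beside them as an alternative. For LIP and EV they were 0.311, -0.119 and 0.243, and the numbers were not taken as pairs, although a number that links both groups to LAP would link them too. These values are over 11535 genes; over the 37 members among them those of LIP and EV were 0.457, 0.284 and 0.326.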

Additional observations from a re-analysis of the deposited data

How the results depend on the processing

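In LIP against EV, the 1 member called lower became 3 with DESeq2, 3 with the edgeR exact test, 2 with both together, 2 with all 9 libraries in a single model, and 0 with filterByExpr or robust estimation (13 and 15 lower at an unadjusted p under 0.05). Over all genes, the 60 called lower became 248, 242, 204 and 127 in that order. They were 3 with filterByExpr and 23 with robust estimation. With the replicate number as a block the 1 member became 8 in LIP against EV (Dkk3, Fzd1, Nkd2, Rspo1, Rspo2, Rspo3, Sfrp1 and Sfrp2, with 2.21% of all genes lower), where the numbers were not taken as pairs over all genes but the members' deviations correlated within each number, and 12 of 53 against 5 in LIP against LAP. The block changed no call in LAP against EV. Leaving out each library in turn gave 1 to 7 members lower against EV, with 7 reached without LIP 3 and 4 without LIP 1, and 1 to 8 lower in LIP against LAP, with 1 reached without LAP 2, 2 without LIP 2, 3 without LAP 1 and 8 without LAP 3 or LIP 3. The calls over all genes moved too. Against EV, 60 genes were lower with all libraries, 230 without LIP 3 and 246 without LIP 1. Against LAP, 152 were lower with all libraries, 6 without LAP 2, 73 without LIP 2 and 115 without LAP 1. Without LAP 3 or LIP 3 these were 344 and 310. In LIP against LAP, scaling by total counts alone left 3 of the 5 members (Rspo2, Sfrp1 and Sfrp2), and filterByExpr and robust estimation left 0. Over all genes these 3 fits called 85, 1 and 40 lower.

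Of the other pathway genes, the 1 lower in LIP against EV became 3 with DESeq2, 2 with the edgeR exact test, 2 with both, 0 with filterByExpr and 3 with the replicate block, and the 0 higher became 1 with DESeq2, the exact test or both. Without single libraries these counts were 1 to 3 and 0 to 1. In LIP against LAP, the 1 lower and 1 higher became 0 and 0 with filterByExpr, 0 and 0 with robust estimation and 6 and 2 with the block. Over all genes there, 152 lower and 38 higher became 1 and 1, 40 and 15, and 871 and 312 in that order. Without single libraries the counts of pathway genes ranged from 0 to 2 and from 0 to 1. In LAP against EV, 0 members were called under any alternative, and the log2 fold change of Sfrp4 ranged from -0.18 to 0.30, of Sfrp2 from -0.12 to 0.55, of Rspo2 from -0.0601 to 0.85 and of Sfrp1 from -0.15 to 1.09 without single libraries. In both comparisons with LIP, the members with an unadjusted p under 0.05 and a mean of at least 20 counts, and Wnt6, kept their direction under every alternative run; the other members were not followed. The number of members at 1 CPM per kb or more moved to at most 28 with other scaling or lengths. With 3 libraries per group, members under 20 counts could be compared only by their counts.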
